A study of Mus musculus with 6 samples.

Results

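The genes described here are 10 genes of fatty acid synthesis, desaturation, elongation and activation: Acly, Acaca, Acacb, Fasn, Scd1, Scd2, Elovl5, Elovl6, Acsl1 and Srebf1. They were taken by symbol from the 55414 gene identifiers of the deposited count table, and all 10 were found. RNA-seq had been made from 6 libraries of AY-mICC, a mouse line used to study intrahepatic cholangiocarcinoma, which arises from bile ducts inside the liver. The 3 control libraries (shCon, genotype control) and the 3 libraries of cells with a Copa knockdown (shCopa) came from the same line, grown in DMEM with 10% fetal bovine serum, and the labels record no treatment. Copa encodes a subunit of COPI, the coat of vesicles that bring proteins and lipids from the Golgi back to the endoplasmic reticulum (ER). The hairpin sequences, the number of hairpins, whether the cells are 1 clone and whether the replicates were separate cultures are not stated in the labels, so p-values measure only the spread between these libraries, which may be technical.

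Fatty acid synthesis starts in the cytosol, where ATP citrate lyase (Acly) turns citrate into acetyl-CoA, acetyl-CoA carboxylase (Acaca) turns that into malonyl-CoA, and fatty acid synthase (Fasn) joins the units into palmitate. ER enzymes then lengthen the chain (the Elovl family) and put in a double bond (the Scd family), and acyl-CoA synthetases (the Acsl family) attach coenzyme A to free fatty acids so that they can be used. SREBP-1, the product of Srebf1, is a transcription factor that raises the expression of most of these genes. It is made as an ER membrane protein, is carried to the Golgi by the escort protein SCAP, and is cut there to release its active part. These enzymes supply fatty acids for membranes and for storage. The comparison of shCopa with shCon asks how transcripts of this pathway stand when Copa is lowered.

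Promoter sequences are shown for the member that fell most, Acsl1, which has 2 annotated start sites, for Elovl6, which also fell, and for Fasn, which did not pass the test, so that their letters can be set beside the values that follow. They are RefSeq windows of build GRCm38.p6 from 250 bases before to 50 bases after a start site. In all, 8 of the 10 genes matched, with 11 windows, and Scd1 and Scd2 had no entry. Lower case is the plain sequence, and capitals mark matches on either strand to 5 motifs: the core of the sterol regulatory element, to which SREBPs bind (TCACNCCAC), the E-box (CACGTG, a palindrome counted once), the NF-Y box (CCAAT), the Sp1 box (GGGCGG) and the LXR direct repeat with a spacer of 4 bases.
Acsl1, first start site (chr8:46470787-46471086, plus strand): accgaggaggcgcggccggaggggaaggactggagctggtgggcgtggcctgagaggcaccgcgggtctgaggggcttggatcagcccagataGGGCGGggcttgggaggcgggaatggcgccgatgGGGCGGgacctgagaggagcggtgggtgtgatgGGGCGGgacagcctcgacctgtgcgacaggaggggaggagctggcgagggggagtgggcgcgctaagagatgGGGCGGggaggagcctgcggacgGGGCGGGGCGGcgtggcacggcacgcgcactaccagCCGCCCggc
Acsl1, second start site (chr8:46490716-46491015, plus strand): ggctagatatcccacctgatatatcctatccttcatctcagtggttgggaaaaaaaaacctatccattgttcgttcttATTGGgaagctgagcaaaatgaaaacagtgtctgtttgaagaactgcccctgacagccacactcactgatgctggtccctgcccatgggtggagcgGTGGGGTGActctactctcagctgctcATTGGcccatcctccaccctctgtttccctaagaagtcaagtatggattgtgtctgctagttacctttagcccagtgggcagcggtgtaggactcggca
Elovl6 (chr3:129532136-129532435, plus strand): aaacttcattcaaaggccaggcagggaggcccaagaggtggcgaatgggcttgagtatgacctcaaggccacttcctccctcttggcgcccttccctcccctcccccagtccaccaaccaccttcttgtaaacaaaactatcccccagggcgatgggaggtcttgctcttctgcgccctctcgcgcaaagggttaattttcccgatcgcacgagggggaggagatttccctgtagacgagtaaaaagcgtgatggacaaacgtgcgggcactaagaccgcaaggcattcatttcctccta
Fasn (chr11:120824498-120824797, minus strand): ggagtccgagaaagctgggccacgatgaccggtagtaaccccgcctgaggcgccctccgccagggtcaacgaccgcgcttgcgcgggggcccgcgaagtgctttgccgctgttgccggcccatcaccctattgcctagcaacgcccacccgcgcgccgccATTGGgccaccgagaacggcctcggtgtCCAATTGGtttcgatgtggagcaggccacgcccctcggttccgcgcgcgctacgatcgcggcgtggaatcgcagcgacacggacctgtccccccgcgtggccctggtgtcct
The sterol regulatory element core was found in 1 of the 11 windows, that of the second Acsl1 start site, with its first base at -76 from the start site, where 1.24% of 32817 mouse windows of the same length hold it. The first Acsl1 window held 7 Sp1 boxes, of which one pair overlaps, and the Fasn window 3 NF-Y boxes between -90 and -59, of which one pair overlaps. The Elovl6 window held none of the 5 motifs. NF-Y boxes were in 7 of the 11 windows (37.4% of all windows), Sp1 boxes in 4 (35.6%), the E-box in 1, that of Elovl5 (7.15%), and the LXR repeat in 0 (0.0152%). No match to one motif overlapped a match to another in these windows. A match is a string of letters and not a shown binding site, and the counts per gene do not tell the start sites of a gene apart. Only these exact strings were sought, so variants of a motif and sites outside the windows were missed.

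Library totals ran from 19634876 to 24546142 estimated counts. Copa stood at 488 ± 59.1 CPM (SD, n = 3) in shCon and 185 ± 2.91 CPM in shCopa. CPM values are a gene's counts scaled to library size, with library sizes adjusted by the TMM method. One control library, shCon 1, stood apart from its group: across tested genes its log2 CPM correlated with those of shCon 2 and shCon 3 at r = 0.9734 and 0.9719, against 0.9898 between those libraries. Over all genes, 36.5% of 14807 tested passed the test (quasi-likelihood test of edgeR, adjusted p under 0.05 after Benjamini and Hochberg), 18.2% higher and 18.4% lower in shCopa. Below, a gene is said to rise or fall only where it passed. Of 10 bile duct markers, 7 stood above 100 CPM in every library, among them Krt19 at 522 to 622 CPM, while Epcam was at or below 0.790 CPM. Of the 9 tested, 1 rose and 5 fell, and their summed level was 11396 to 14471 CPM in shCon and 8511 to 8990 CPM in shCopa, mostly Spp1 and Krt8. Plin1 and Cfd, of adipocytes, and Apoc3, of hepatocytes, had no count in any library. All 6 adipocyte markers together stood at 84.2 to 99.8 CPM in shCon and 95.4 to 97.0 CPM in shCopa, and the 1 tested did not pass. The summed level of the 8 hepatocyte markers was 10.8 to 15.0 CPM in shCon and 30.5 to 32.5 CPM in shCopa, mostly Alb, and that of the 6 blood cell markers 14.2 to 16.1 and 23.3 to 25.0 CPM. In each of these lists 2 of 3 tested members rose, Alb and Hnf4a in the first, Ptprc and Lyz2 in the second. Adgre1 and Cd3e, of macrophages and T cells, were at or below 0.0885 CPM in every library. The 6 fibroblast markers summed to 185 to 224 CPM in shCon and 170 to 184 CPM in shCopa, mostly Dcn, which did not pass; of the 4 tested, Acta2 rose and Pdgfrb fell, both at or below 2.40 CPM in every library. Their part in the results below was not tested.

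Of the 10 fatty acid genes, Scd1 rose, Acsl1, Elovl6 and Srebf1 fell, and Acly, Acaca, Acacb, Fasn, Scd2 and Elovl5 did not pass. The 4 that passed, 1 higher and 3 lower, stand beside the 36.5% of all tested genes, 18.2% higher and 18.4% lower. In 5 of the 10, the 4 genes called and Elovl5, shCopa and shCon libraries did not overlap, against 54.0% of all genes. In 1 of them shCopa was higher (27.2% of all genes) and in 4 lower (26.9%). All 10 passed the filter on low counts. The median log2 fold change of the 10, shCopa minus shCon, was -0.15, and that of all tested genes -0.01. The 4 calls were made by each of the alternatives run, and by each fit that left out 1 library. Without shCon 1, 7 fell instead of 3, with Acaca, Fasn, Scd2 and Elovl5 added. Over all genes the falls also grew without shCon 1, from 2720 to 4122. In bulk RNA, fewer cells that express a gene and less RNA of it per cell cannot be told apart.

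**Figure D1:**
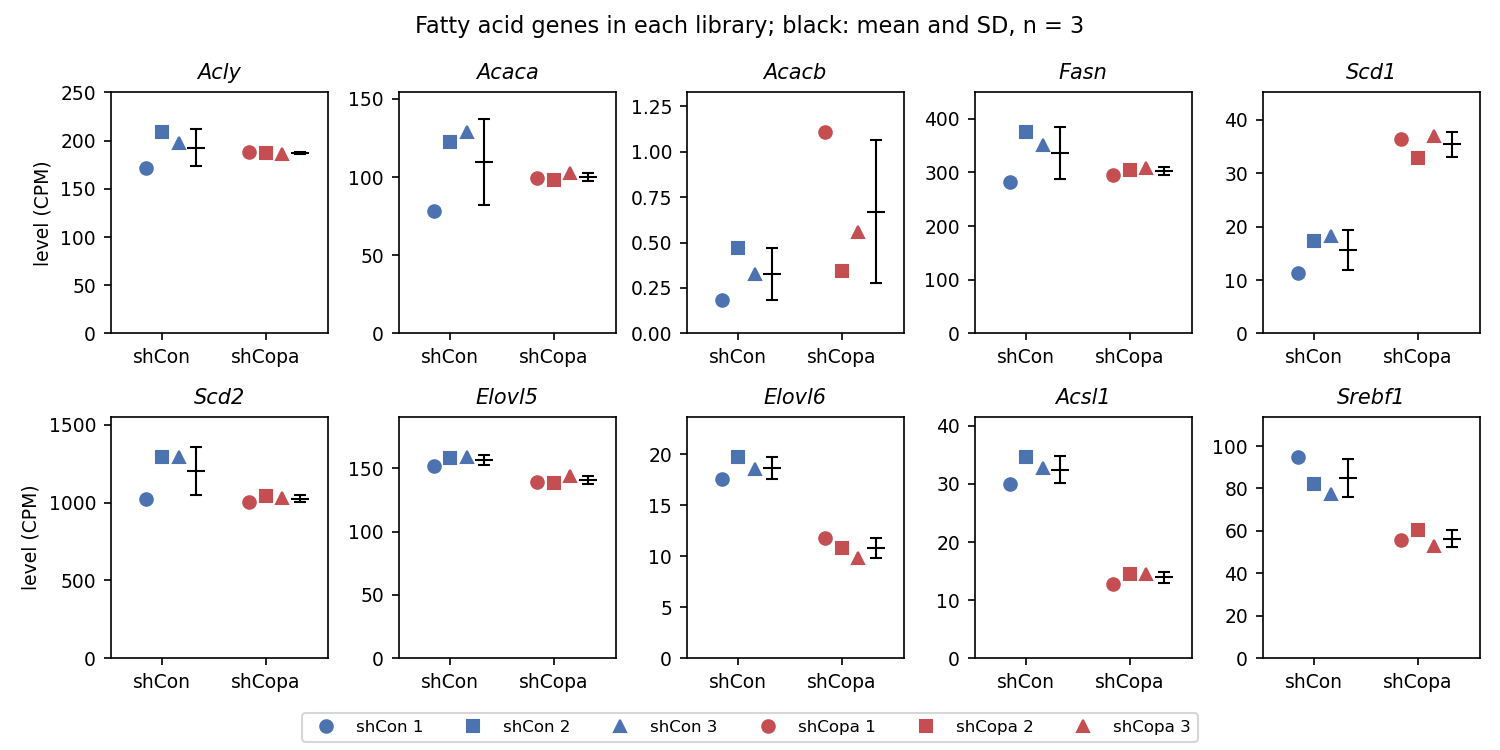
Level in CPM of each of the 10 genes (linear axes from 0) in the 6 libraries, by replicate symbol, with the mean and SD of each group in black (n = 3). Scd1 is higher in all 3 shCopa libraries, and Acsl1, Elovl6 and Srebf1 are lower in all 3. Library shCon 1 is the lowest control for every gene but Srebf1, for which it is the highest.

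None of the enzymes that make palmitate passed the main test with all 6 libraries. Acaca passed as lower once offsets for transcript length and GC content were added (edgeR adjusted p = 0.00991). Acly was at 172, 209 and 197 CPM in shCon replicates 1 to 3 and at 188, 187 and 186 CPM in shCopa replicates 1 to 3. The shCopa libraries lay within the range of the controls. Its log2 fold change was -0.04 ± 0.10 (SE; edgeR adjusted p = 0.771), and without shCon 2 it was 0.015. Fasn was at 283, 375 and 351 CPM in shCon and 294, 304 and 309 CPM in shCopa. Its groups overlapped through shCon 1 alone, which was lower than every other library. The log2 fold change was -0.15 ± 0.12 (edgeR adjusted p = 0.351), without shCon 1 it was -0.27 (edgeR adjusted p = 0.000404), and without shCon 2 -0.07.

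Acaca, the cytosolic acetyl-CoA carboxylase and the committed step of the pathway, was at 78.1, 122 and 129 CPM in shCon and 99.2, 98.1 and 103 CPM in shCopa. Here too shCon 1 was the lowest library and shCon 2 and 3 were above every shCopa library. The log2 fold change was -0.13 ± 0.18 (edgeR adjusted p = 0.597). Without shCon 1 it was -0.33 (edgeR adjusted p = 7.32e-05), without shCon 2 -0.05, without shCon 3 -0.015, and with offsets for transcript length and GC content, fitted in each library, -0.23 (edgeR adjusted p = 0.00991). Acacb, the carboxylase at the mitochondrial surface, whose product restrains the entry of fatty acids into mitochondria, was close to absent, with 4, 11 and 8 counts in shCon and 25, 8 and 11 in shCopa. In CPM, shCopa 1 and shCopa 3 were above all controls and shCopa 2 was among them. Its log2 fold change of 1.01 ± 0.56 did not pass (edgeR adjusted p = 0.198), and without shCopa 1 it was 0.43. The log2 ratio of Acaca to Acacb in the same library was 8.34 ± 0.34 (SD, n = 3) in shCon and 7.33 ± 0.81 in shCopa, with overlapping groups (two-sided exact permutation test, p = 0.2; the smallest p that 3 against 3 libraries allow is 0.1). The difference was -1.01, and -0.58 without shCopa 1.

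Of the stearoyl-CoA desaturases, which turn saturated into monounsaturated acyl chains, Scd1 rose and Scd2 did not pass. Scd1 was at 11.4, 17.3 and 18.3 CPM in shCon and 36.4, 32.8 and 37.0 CPM in shCopa. Every shCopa library was above every control, and shCon 1 was the lowest. Scd1 rose 2.26-fold, with a log2 fold change of 1.17 ± 0.18 (edgeR adjusted p = 0.00241), which was 0.99 without shCon 1. Scd2, its paralogue, was at 1022, 1293 and 1291 CPM in shCon and 1003, 1045 and 1030 CPM in shCopa. It was the most abundant of the 10 genes and ranked at 272 of the 14807 tested genes by level per transcript length. Its log2 fold change of -0.23 ± 0.11 did not pass (edgeR adjusted p = 0.153), while without shCon 1 it was -0.34 (edgeR adjusted p = 1.59e-05) and with the length and GC offsets -0.26 (edgeR adjusted p = 0.00199).

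In each library the log2 ratio of Scd1 to Scd2 counts, which does not depend on scaling, was between -6.49 and -6.14 in shCon and between -4.99 and -4.78 in shCopa. The difference of 1.42 was larger than the spread within groups (SD 0.18 and 0.12, n = 3 each; two-sided exact permutation test, p = 0.1, the smallest possible). Scd1 still made up a small part of the desaturase transcripts. By level per length it was 1.43% ± 0.17 (SD, n = 3) of the sum of Scd1 to Scd4 in shCon and 3.75% ± 0.29 in shCopa, and that sum was 224 ± 29.4 and 196 ± 3.66 CPM per kb. Of the other paralogues, Scd4 rose from 0.359 ± 0.174 to 1.19 ± 0.353 CPM (log2 fold change 1.72 ± 0.43, edgeR adjusted p = 0.0175), a call that was lost without shCon 3 or shCopa 2. Scd4 had 5, 13 and 7 counts in shCon and 23, 37 and 19 in shCopa, and passed the low-count filter mainly through shCopa. Scd3 had 0 to 3 counts per library and was not tested. The Scd genes resemble one another, so reads may have been divided among them, which makes the levels of Scd1, Scd3 and Scd4 beside the abundant Scd2 uncertain.

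Of the 2 elongases among the 10 genes, Elovl6 fell and Elovl5 did not pass. Elovl6, which lengthens saturated and monounsaturated chains such as palmitate, was at 17.6, 19.8 and 18.6 CPM in shCon and 11.8, 10.8 and 9.81 CPM in shCopa. The groups were well separated, with a narrow spread in both. Elovl6 fell to 58.0% of control, a log2 fold change of -0.78 ± 0.12 (edgeR adjusted p = 0.00225). Elovl5, which lengthens polyunsaturated chains, was at 152, 158 and 159 CPM in shCon and 139, 138 and 144 CPM in shCopa. Every shCopa library was below every control, by a small margin. Its log2 fold change of -0.15 ± 0.08 did not pass (edgeR adjusted p = 0.167), and it was -0.18 without shCon 1 (edgeR adjusted p = 0.00984) and -0.27 with the length and GC offsets (edgeR adjusted p = 0.00254).

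The log2 ratio of Elovl5 to Elovl6 was 3.07 ± 0.06 (SD, n = 3) in shCon and 3.70 ± 0.16 in shCopa, and the groups did not overlap (two-sided exact permutation test, p = 0.1, the smallest possible). By level per length, Elovl6 made up 2.49% ± 0.20 of the sum of Elovl1 to Elovl7 in shCon and 1.63% ± 0.21 in shCopa. Elovl5, Elovl1 and Elovl7 held nearly all the rest. Elovl7, an elongase of long saturated chains, fell (log2 fold change -0.38 ± 0.08, edgeR adjusted p = 0.00885), a call lost without shCopa 1 or shCopa 2. Elovl1, which makes very long chains and was named after its values were seen, did not pass (0.04 ± 0.15, edgeR adjusted p = 0.867), and turned to -0.034, -0.055 and -0.021 without shCon 2, shCon 3 and shCopa 2.

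**Figure D2:**
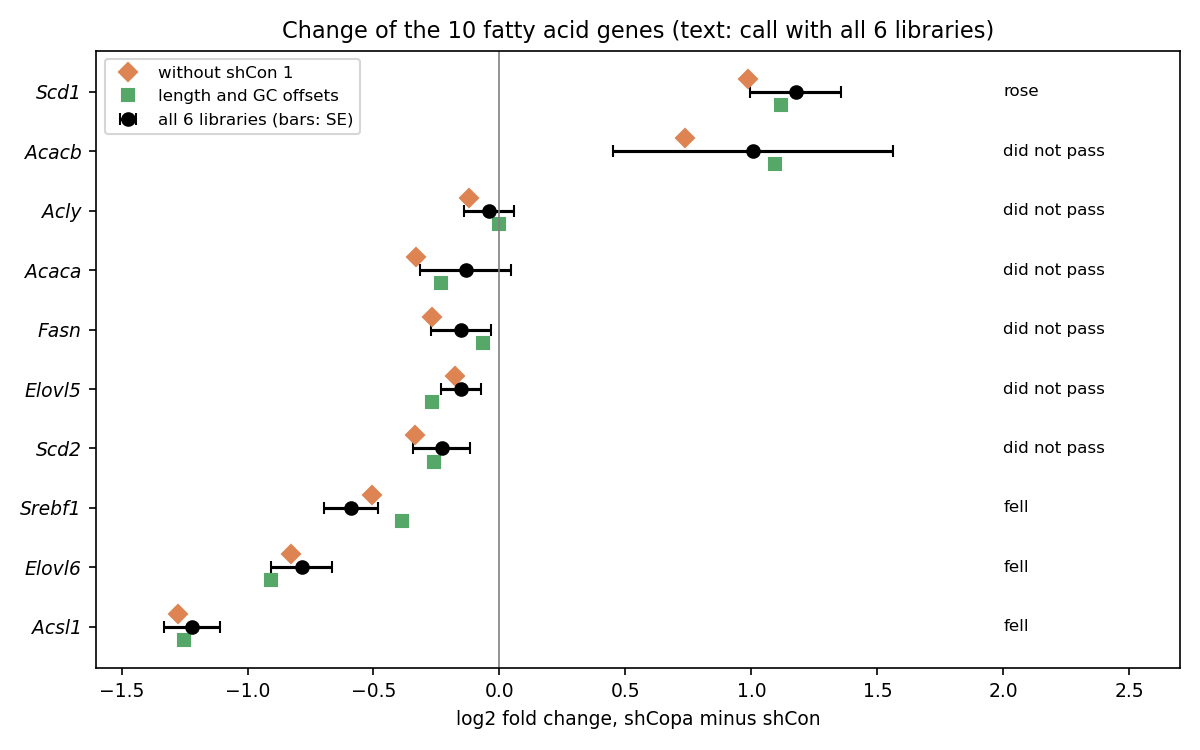
Log2 fold change, shCopa minus shCon, of the 10 genes with all 6 libraries (black, bars are the SE of the fit), without shCon 1 (diamonds) and with length and GC offsets (squares). Scd1 at 1.17 and Acsl1 at -1.22 are the extremes. All genes but Scd1 and Acacb lie below 0 under all 3 settings, Acly at -0.001 with the offsets.

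Acsl1, the acyl-CoA synthetase that activates long-chain fatty acids at the ER and the outer mitochondrial membrane, had the largest fall of the 10. It was at 30.0, 34.6 and 32.7 CPM in shCon and 12.8, 14.5 and 14.5 CPM in shCopa. Every control was far above every shCopa library. Acsl1 fell to 42.9% of control, with a log2 fold change of -1.22 ± 0.11 (edgeR adjusted p = 0.000247) that ranged from -1.28 to -1.16 over fits that each left out 1 library. Its exons share 9.91% of their bases with those of Gm45244 on the other strand in GENCODE M21, which had 0 to 3 counts a library. In this line Acsl1 held a small share of its family. By level per length it made up 5.16% ± 0.38 (SD, n = 3) of the sum of Acsl1, Acsl3, Acsl4, Acsl5 and Acsl6 in shCon and 3.38% ± 0.27 in shCopa.

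Acsl3, Acsl4 and Acsl5 fell as well. Acsl5, the most abundant by level per length, was at 373, 353 and 353 CPM in shCon and 219, 224 and 254 CPM in shCopa (log2 fold change -0.63 ± 0.09, edgeR adjusted p = 0.00194). Acsl3, a synthetase of the ER and lipid droplets, fell to 59.0% of control (edgeR adjusted p = 0.00457). Acsl4, which prefers arachidonate and was named after its values were seen, fell to 70.3% (edgeR adjusted p = 0.0264), a call kept without shCon 1 and lost without any other single library. The summed level of the family was 161 ± 10.1 CPM per kb in shCon and 106 ± 2.76 in shCopa. Among the fatty acid transport proteins, which also carry synthetase activity, Slc27a4 and Slc27a1 fell to 49.8% and 62.5% of control, the second named after its values were seen. Acsbg1, the bubblegum synthetase, rose 8.14-fold, from 0.380 ± 0.0886 to 3.11 ± 0.204 CPM (edgeR adjusted p = 0.000231). It had 10, 9 and 7 counts in shCon and 66, 77 and 61 in shCopa, and passed the low-count filter mainly through shCopa. Slc27a6 rose too (0.45 ± 0.15, edgeR adjusted p = 0.0437), a call kept without shCon 1 and lost without any other single library or without the low-count filter. Of the 17 genes on this list, 9 were tested, and the median log2 fold change was -0.63. Of the 9, 2 rose (22.2%, beside 18.2% of all tested genes) and 5 fell (55.6%, beside 18.4%). Leaving out any 1 library other than shCon 1 left 1 that rose.

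**Figure D3:**
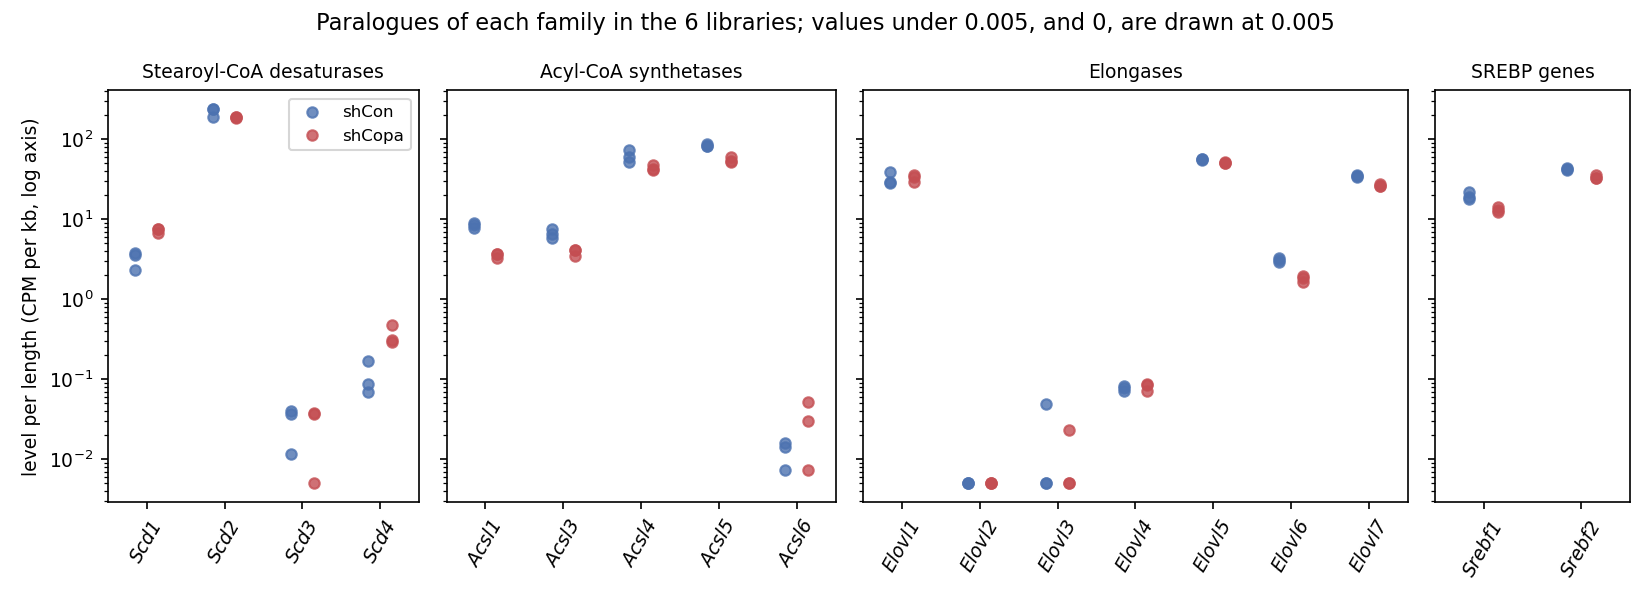
Level per transcript length (CPM per kb, log axis, values under 0.005 drawn at 0.005) of the paralogues of Scd, Acsl, Elovl and Srebf in the 3 shCon (blue) and 3 shCopa (red) libraries. Scd1, Acsl1 and Elovl6 lie far below the leading gene of their family in both groups, and Acsl1, Acsl3, Acsl4 and Acsl5 all lie lower in shCopa.

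Srebf1, the gene of the factor that drives the pathway, was at 94.8, 82.2 and 77.5 CPM in shCon and 55.6, 60.6 and 52.9 CPM in shCopa. Every shCopa library was below every control, and shCon 1 was the highest. Srebf1 fell to 66.4% of control, with a log2 fold change of -0.59 ± 0.11 (edgeR adjusted p = 0.00493). With the length and GC offsets the fall was -0.38 (edgeR adjusted p = 0.0026). Its exons share 1.93% of their bases with those of Rai1 on the other strand in GENCODE M21, and the labels do not say whether strand was used in counting. The table counts the gene as a whole, so its isoforms are not told apart.

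Of 14 tested genes that process and hold back SREBPs, 3 rose and 3 fell, 21.4% each way, near the 18.2% and 18.4% of all tested genes, and the median log2 fold change was 0.01. Scap, the escort of SREBPs to the Golgi, was at 86.9, 85.0 and 77.5 CPM in shCon and 29.5, 32.5 and 31.6 CPM in shCopa. It fell to 37.5% of control, beside 37.9% for Copa, with a log2 fold change of -1.41 ± 0.09 (edgeR adjusted p = 8.1e-05). Under the length and GC offsets the log2 fold change was -1.18 for Scap and -1.41 for Copa. Srebf2, which encodes the cholesterol-directed SREBP-2, fell less (-0.34 ± 0.08, edgeR adjusted p = 0.0172), and this call was lost without shCon 2, shCopa 1 or shCopa 3. With the length and GC offsets the fall was -0.17 (edgeR adjusted p = 0.025). Insig1, an ER retention protein that is itself an SREBP target, was at 74.5 ± 13.0 CPM and 74.8 ± 2.78 CPM and did not pass (0.01 ± 0.13, edgeR adjusted p = 0.971), while without shCon 1 it passed as higher (0.156, edgeR adjusted p = 0.0437). Rnf145, a ubiquitin ligase that acts on SCAP, fell (-0.57 ± 0.08, edgeR adjusted p = 0.00151). Erlin1, an ER lipid raft protein that restrains SREBP activation, rose (0.92 ± 0.10, edgeR adjusted p = 0.000561). Fbxw7, which marks nuclear SREBPs for degradation, and Mbtps2, the site-2 protease that cuts them, rose by 0.63 and 0.36 on the log2 scale. The call of Fbxw7 was lost without shCopa 2 and that of Mbtps2 without shCon 3, any 1 shCopa library or the low-count filter. Without shCon 1, 6 of the 14 rose and 4 fell, and without shCopa 2 1 rose.

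By level per length, the order of the 10 genes in shCon was Scd2 (220 ± 28.6 CPM per kb, SD, n = 3), Elovl5 (56.2 ± 1.37), Acly (43.5 ± 4.31), Fasn (33.5 ± 4.75), Srebf1 (19.7 ± 2.08), Acaca (11.5 ± 2.89), Acsl1 (8.32 ± 0.598), Scd1 (3.24 ± 0.776), Elovl6 (3.13 ± 0.184) and Acacb (0.0374 ± 0.0163). Neighbours in this order overlapped between libraries for Acaca with Acsl1 and for Scd1 with Elovl6. In shCopa the order was the same except that Scd1 (7.33 ± 0.472) stood above Acsl1 (3.57 ± 0.252), and no neighbours overlapped. These levels use the longest coding transcript of each gene in GENCODE M21 and so depend on the isoform in use.

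Around the 10 genes, 10 lists of the wider pathway held 136 tested genes, of which 19 rose (14.0%, beside 18.2% of all tested genes) and 50 fell (36.8%, beside 18.4%). With 1 library left out, 10 (without shCopa 2) to 30 (without shCon 1) rose and 29 (without shCopa 3) to 62 (without shCon 1) fell, and without shCopa 1 or shCopa 2 31 and 32 fell. Among 11 genes that supply acetyl-CoA and NADPH, 9 were tested, 1 rose (11.1%) and 5 fell (55.6%), with a median log2 fold change of -0.32. Slc25a1, the mitochondrial citrate exporter, fell to 56.5% of control, and Acss2, which makes acetyl-CoA from acetate and was named after its values were seen, to 67.7%. G6pdx and Me1, sources of NADPH, fell by 0.41 and 0.39 on the log2 scale, and Pgd, the next enzyme after G6pdx in the pentose phosphate pathway, rose by 0.48. The calls of G6pdx and Me1 were lost without shCopa 1 or shCopa 2, that of Acss2 without shCopa 1 or shCopa 3, and 1 gene of this list fell without shCopa 1, 2 without shCopa 2 and 3 without shCopa 3. Without any 1 shCon library or shCopa 1, 2 rose. In shCon 1 Slc25a1 stood at 82.7 CPM, above the 57.2 CPM of both other controls, and without it the fall was -0.63, and with the length and GC offsets -0.54.

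Of 22 further genes of synthesis, elongation and desaturation, 17 were tested (median -0.10). Of the 17, 4 rose (23.5%, beside 18.2% of all tested genes) and 5 fell (29.4%, beside 18.4%). Fads2, the delta-6 desaturase that starts the synthesis of highly unsaturated chains, was at 947, 972 and 947 CPM in shCon and 584, 628 and 589 CPM in shCopa. The groups were far apart, and it fell to 62.9% of control (log2 fold change -0.67 ± 0.08, edgeR adjusted p = 0.000842). Fads1, the delta-5 desaturase, named after its values were seen, did not pass (-0.22 ± 0.08, edgeR adjusted p = 0.0704; it passed without shCon 1, by DESeq2 and with the length and GC offsets, at -0.23, -0.22 and -0.19). Hsd17b12, the ketoacyl reductase of the elongation cycle, rose 1.69-fold (edgeR adjusted p = 0.00116). Hacd1 and Hacd3, dehydratases of the same cycle, fell by 0.69 and 0.42 on the log2 scale, calls that were lost without any 1 shCopa library. Thrsp, the lipogenic protein Spot 14, rose by 0.97 from 1.49 ± 0.477 to 2.92 ± 0.550 CPM, a call kept without shCon 1 and lost without any other single library; these last 3 genes were named after their values were seen. Fads6 rose by 0.42, lost without 4 of the 6 libraries (shCon 2, shCon 3, shCopa 1 or shCopa 2) and without the low-count filter, and Ppt1, a lysosomal thioesterase, fell by 0.45, lost without shCopa 1 or shCopa 3. The number that rose was 2 without shCon 2 or shCopa 1 and 1 without shCon 3 or shCopa 2. With shCon 1 left out 8 fell, with shCopa 1 left out 1 fell, and with shCopa 2 or shCopa 3 left out 2 fell.

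In the separate mitochondrial pathway of fatty acid synthesis, 1 of 9 rose (Oxsm, the ketoacyl synthase, 0.47 ± 0.10) and 2 fell (median -0.18). These were 11.1% and 22.2% of the list, beside 18.2% and 18.4% of all tested genes. Ndufab1, its acyl carrier protein and a complex I subunit, fell by 1.66 on the log2 scale, from 74.1 ± 27.9 to 23.4 ± 3.99 CPM, with a wide spread in shCon, and H2-Ke6 (Hsd17b8), a ketoacyl reductase subunit, fell by 1.37, and by 0.86 without shCon 1. The call of H2-Ke6 was lost without any 1 shCopa library, and 2 of the list rose without shCon 1. Among the 11 genes of fatty acid uptake and binding, 7 were tested, of which 1 rose and 1 fell, 14.3% each way. Lpl, lipoprotein lipase, fell (-0.82 ± 0.13, edgeR adjusted p = 0.00233), and Fabp3, a cytosolic fatty acid binding protein, rose from 0.320 ± 0.0452 to 0.930 ± 0.304 CPM (edgeR adjusted p = 0.0183), a call lost without shCon 2, shCon 3, shCopa 1 or shCopa 2. Fabp3 had 8, 7 and 7 counts in shCon and 22, 28 and 12 in shCopa, and passed the low-count filter mainly through shCopa. The median of this list was -0.09, and 2 fell without shCon 1.

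Of 17 tested genes of other regulators, which work with or beside SREBP-1, 1 rose and 8 fell (median -0.38). These were 5.9% and 47.1% of the tested genes of the list, beside 18.2% and 18.4% of all tested genes. Nr1h2 and Nr1h3, the liver X receptors, fell by 0.58 and 0.72 on the log2 scale, the second named after its values were seen, and their partner Rxra fell by 0.47. With the length and GC offsets Nr1h2 fell by 0.26. Nfya, the subunit of NF-Y that contacts the CCAAT box, fell by 0.44. Mlxip, a glucose-responsive factor related to ChREBP, rose by 0.53, a call kept without shCon 1 (0.34) and lost without any other single library. The call of Nr1h2 was lost without shCopa 3 and that of Nr1h3 without shCon 2 or any 1 shCopa library, and leaving out shCon 1 gave 9 falls and 4 rises, leaving out shCon 2 gave 5 falls, leaving out shCopa 1 or shCopa 2 gave 4, and leaving out shCopa 3 gave 2.

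Of 13 genes that control acetyl-CoA carboxylase and fatty acid synthase, 3 rose and 3 fell (median -0.11), 23.1% each way, near the 18.2% and 18.4% of all tested genes. Trib3, a pseudokinase linked to the turnover of acetyl-CoA carboxylase, rose from 21.7 ± 3.93 to 51.0 ± 0.943 CPM (log2 fold change 1.24 ± 0.14, edgeR adjusted p = 0.000641). Among subunits of AMPK, the kinase that inhibits acetyl-CoA carboxylase, Prkab2 rose by 0.83 and Prkaa2 by 0.62, while Prkab1 fell by 0.74. The other AMPK subunits listed did not pass. In shCon, Prkab2 was at 5.56 CPM and Prkab1 at 66.5 CPM. Stk11 (LKB1), the kinase that activates AMPK, fell by 0.68. Bckdk, a kinase reported to act on ATP citrate lyase, fell from 39.5 ± 6.93 to 14.9 ± 1.28 CPM (-1.41 ± 0.15, edgeR adjusted p = 0.000493). The call of Prkaa2 was lost without any 1 shCopa library and that of Stk11 without shCopa 3. With the length and GC offsets Stk11 fell by 0.42 and Prkaa2 rose by 0.476, and without shCon 1 Prkaa2 rose by 0.435. Without shCon 1, 5 fell, and without any 1 shCopa library 2 rose.

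Among 18 genes that place fatty acids into glycerolipids, 17 were tested (median -0.25). Of the 17, 3 rose (17.6%, beside 18.2% of all tested genes) and 5 fell (29.4%, beside 18.4%). Lpcat3, which puts polyunsaturated chains into phospholipids, was at 129, 125 and 123 CPM in shCon and 65.3, 69.4 and 61.7 CPM in shCopa and fell to 52.1% of control (edgeR adjusted p = 0.000266). Lpcat1 and Mboat7, further lysophospholipid acyltransferases, fell by 0.67 and 0.53 on the log2 scale. Gpat3, which starts glycerolipid synthesis, Lpin2, a phosphatidate phosphatase, and Mogat2, a monoacylglycerol acyltransferase, rose by 0.68, 0.57 and 1.77, the last from 0.408 ± 0.0900 to 1.40 ± 0.0508 CPM. Mogat2 had 11, 8 and 9 counts in shCon and 33, 32 and 27 in shCopa, and passed the low-count filter mainly through shCopa. The call of Lpin2 was lost without shCopa 3, and 8 fell without shCon 1 and 3 without shCopa 2 or shCopa 3.

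Genes of fatty acid oxidation, which consume what Acsl1 and the other synthetases activate, had the largest number of falls among these 10 lists, which differ in size. Of 24 tested, 13 fell (54.2%, beside 18.4% of all tested genes), 0 rose (beside 18.2%) and 11 did not pass by edgeR. The share that fell was 55.6% both among genes that supply acetyl-CoA and NADPH and among the other synthetases and transport proteins. For oxidation the median log2 fold change was -0.44. DESeq2 and limma-voom also called 0 higher, and at an unadjusted p under 0.05 edgeR had 0 higher. Eci2, an enoyl-CoA isomerase, fell from 62.4 ± 11.4 to 28.1 ± 1.46 CPM (-1.15 ± 0.14, edgeR adjusted p = 0.000881). Acadm, the medium-chain dehydrogenase, fell by 0.90 and Decr1, the dienoyl-CoA reductase, by 0.79. Cpt1a, the gate for entry of acyl chains into mitochondria, named after its values were seen, fell from 173 ± 21.6 to 109 ± 6.16 CPM (-0.67 ± 0.12, edgeR adjusted p = 0.00385). Without shCon 1, 14 fell, and 9 without any 1 shCopa library. No list was tested as a set, and the median of all tested genes was -0.01.

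**Figure D4:**
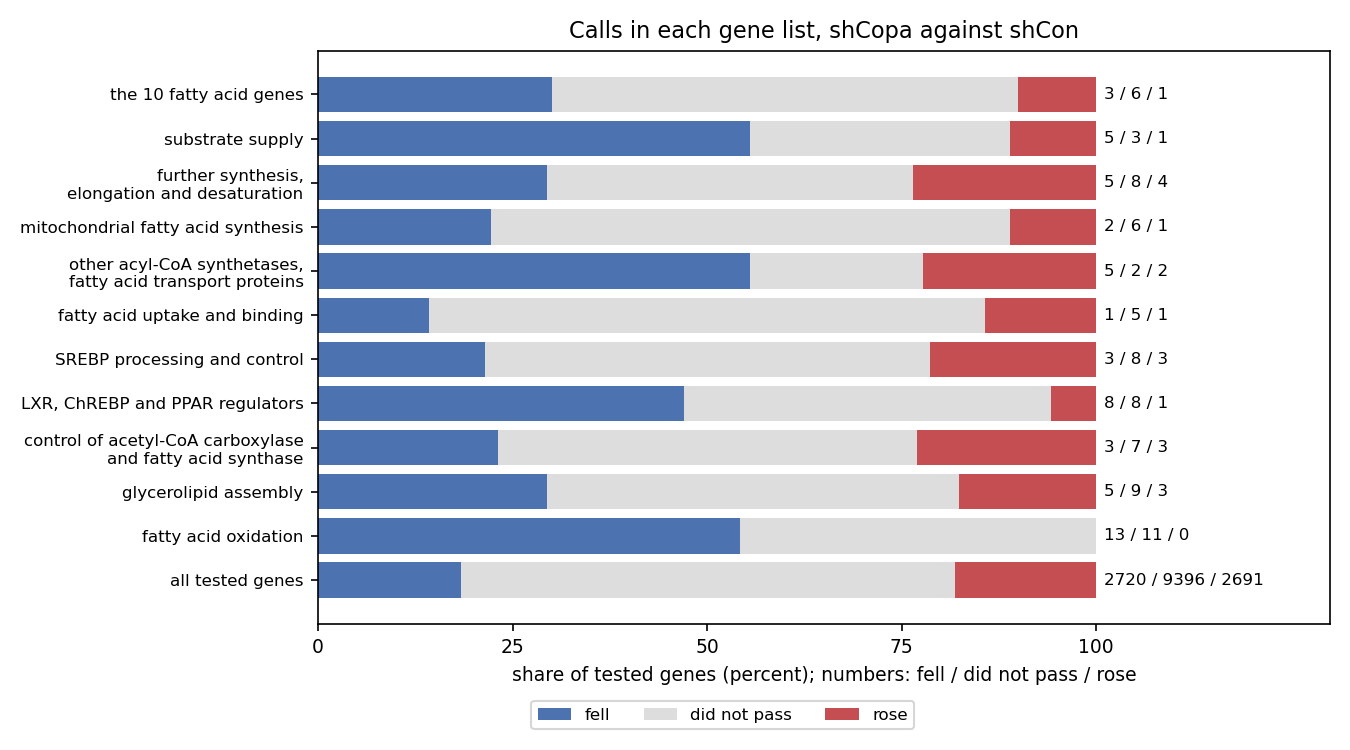
Share of tested genes that fell (blue), did not pass (grey) or rose (red) in each list, with their numbers at the right, in shCopa against shCon. Fatty acid oxidation has 13 falls and 0 rises of 24, the 10 fatty acid genes 3 and 1, and all tested genes 2720 and 2691 of 14807.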

How the data were processed

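RNA-seq of 6 AY-mICC libraries, 3 shCon and 3 shCopa, grouped by sample title, was used. Per the labels' protocols, libraries were made from 1 µg of total RNA with an mRNA kit and sequenced as read pairs. Estimated counts for each Ensembl gene were deposited by the authors in 1 table; 10.6% to 11.9% of values in a library were not whole and were rounded. The tools listed per the submitters' processing notes are HISAT2 2.0.5, Trimmomatic, featureCounts, HTSeq and DESeq2, with build GRCm39; the program that gave the counts, its annotation and its use of strand are not given. Symbols came from a GENCODE M21 name table (52081 identifiers matched; the others held 0.201% to 0.464% of counts and kept their identifiers).

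edgeR 4.0.16 in R 4.3.3 (TMM, filterByExpr, robust quasi-likelihood F test, Benjamini-Hochberg over 14807 genes, threshold 0.05) gave log2 fold changes, shCopa minus shCon, with SEs from the F statistic. These steps were tested on simulated data, with 67 genes changed 1.5-fold, 67 changed 2-fold and 66 changed 4-fold. Of these, 17.9%, 59.7% and 97% were recovered, and 5 of 121 calls were false. The comparison of shCopa with shCon gave 5411 calls. Recovery and false calls at that number of calls were not tested. In 1 library 3 counts equal 0.122 to 0.153 CPM, counting error only. Lengths and GC content came from GENCODE M21 transcripts. Ratios used counts plus 0.5 and an exact permutation test (scipy 1.17.1). Alternatives were other scaling, filters, DESeq2 1.42.0, limma-voom (limma 3.58.1), the replicate number as a block, length and GC offsets, a threshold of 0.01 and each library left out. Genes named were the 10 members, Copa, Srebf2, Scap, Insig1, Scd3, Scd4 and up to 3 genes per direction and list with the smallest adjusted p; others are marked. The members, lists and tests were chosen with earlier results of these data known; family shares were added after values were seen. Marker lists of bile duct, hepatocyte, adipocyte, fibroblast and blood cells were used as a check.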

Additional observations from a re-analysis of the deposited data

How the results depend on the processing

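The calls of Scd1, Acsl1, Elovl6 and Srebf1 held under every alternative run. The number of the 10 genes that fell was 3, 6 with length and GC offsets, with or without the replicate block, and 3 to 7 with 1 library left out, the 7 without shCon 1; 1 rose throughout. Over all genes 5411 passed (2691 higher, 2720 lower), 3177 (1590 and 1587) at a threshold of 0.01, and 3533 to 8439 (1778 to 4317 higher, 1755 to 4122 lower) with 1 library left out, most without shCon 1. With the length and GC offsets 7312 passed (3682 higher, 3630 lower), and 6329 (3187 and 3142) with the replicate block added. In the 10 other lists 19 rose and 50 fell, 9 and 28 at a threshold of 0.01, and 10 to 30 and 29 to 62 with 1 library left out.

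The replicate number as a block gave 1 rise and 3 falls among the 10 genes, and 14 and 40 in the other lists. Same-numbered libraries did not deviate together (r of deviations -0.162, -0.058 and -0.114 for numbers 1 to 3). With 3 libraries per group, this cannot show whether the replicates were made in pairs. With block and offsets Srebf2 was -0.168 and did not pass (adjusted p = 0.0762). The 3 ratio differences kept their sign and moved by less than 1 SD with 5 counts added, with the block or with 1 library left out. Acly, at -0.04, turned to 0.00 with the block and offsets and ran from -0.121 without shCon 1 to 0.015 without shCon 2. Insig1, at 0.01, turned to -0.023 with no low-count filter, -0.072 with offsets and -0.058 with block and offsets, and ran from -0.084 without shCon 2 to 0.156 without shCon 1. Elovl1, at 0.04, ran from -0.055 without shCon 3 to 0.188 without shCon 1. The causes were not tested. Depth limits Acacb, Scd3 and Scd4, with 0 to 37 counts a library. Scd4, Acsbg1, Fabp3 and Mogat2 passed the low-count filter mainly through shCopa. Genes this low in shCon were tested only where shCopa was higher, so a fall could hardly have been called. With a filter of 1 CPM in 3 libraries, Scd4 and Fabp3 were not tested.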
